A study of Mus musculus with 12 samples.

Results

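*Trh* encodes the precursor of thyrotropin-releasing hormone (TRH), and 8 gene symbols of the thyroid hormone system were examined around it in the maturing mouse cochlea. They were taken by symbol from the 28686 symbols of the deposited count table, and all 8 were present: *Trh*, its receptor *Trhr*, the TRH-degrading enzyme *Trhde*, the deiodinases *Dio2* and *Dio3*, the receptors *Thra* and *Thrb*, and the transporter *Slc16a10*. They were picked with the mutant against control comparison already known, in which *Trh* stood out. Their differences between genotypes are therefore given as a description, without a test.

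At postnatal day (P)6, RNA was sequenced from 6 mutants of genotype *Sox2*CreER/+ *Jag1*fl/fl and from 6 *Sox2*+/+ controls of the same litters. The deposited labels give the strain as C57BL/6;129SV, whereas the study's methods name C57bl6/J and FVB/n as the backgrounds of the parent lines. Every pup received tamoxifen on P0 and P1. The CreER recombinase is made from the *Sox2* locus, which is active in all supporting cell subtypes of the cochlea, and removes the floxed part of *Jag1*, a Notch ligand, after tamoxifen. The controls carried the floxed *Jag1* allele on 1 or both chromosomes and no CreER, so mutants also differed from controls by the allele at the *Sox2* locus. The deposited labels name the tissue as cochlea, and the study speaks of cochlear tissue in its methods and of sensory epithelium in its results.

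TRH is a tripeptide best known as the hypothalamic signal that makes the pituitary release thyrotropin, which in turn drives the thyroid gland. The gland secretes mostly thyroxine (T4), which the type 2 deiodinase converts in target tissues to the active triiodothyronine (T3) and the type 3 deiodinase inactivates. T3 binds nuclear receptors, of which the beta receptor is needed for hearing, and the onset of hearing in rodents is delayed or lost when the hormone is lacking during the first postnatal weeks.

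The TRH precursor carries several copies of its hormone, and these are shown first because they are what the *Trh* transcript provides. *Trh* lies on the minus strand of chromosome 6 (GRCm38, chr6:92242061-92244650) and has 3 exons. Its coding sequence of 771 bases in GENCODE M21 held 5 runs of codons for glutamine, histidine, proline and glycine, the unit from which each hormone molecule is cut. All 5 lay in exon 3, and all 5 were flanked on both sides by codon pairs for lysine or arginine, the residues at which prohormone convertases cleave. Capitals mark the 12 bases of each unit, 5′ to 3′ on the coding strand.
copy 1 (chr6:92243088-92243111): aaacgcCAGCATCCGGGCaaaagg
copy 2 (chr6:92242992-92243015): aaacgaCAGCACCCTGGCcgacgt
copy 3 (chr6:92242857-92242880): aagcggCAGCACCCTGGCaggcga
copy 4 (chr6:92242803-92242826): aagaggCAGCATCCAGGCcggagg
copy 5 (chr6:92242710-92242733): aaacgtCAGCATCCTGGCaaaagg
The 5 units were written in 4 different ways, with copies 2 and 3 sharing the same 12 bases.

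The deiodinases are selenoproteins, in which a TGA codon inside the reading frame is read as selenocysteine in the active site instead of as a stop. The in-frame TGA and the 12 bases on either side are shown for the 3 deiodinase genes, since these enzymes set local T3 and their transcripts differed widely in level here.
*Dio1* (codon 126, exon 2, chr4:107297688-107297714): ggcagttgcaccTGAccttcatttctt
*Dio2* (codon 130, exon 2, chr12:90729811-90729837): ggttcagccaccTGAccacctttcact
*Dio3* (codon 170, exon 1, chr12:110279727-110279753): ggcagctgtaccTGAccaccgttcatg
*Dio2* held a second in-frame TGA at codon 263, close to the end of its coding sequence.

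Libraries held between 28498549 and 34430252 reads counted on genes in controls and between 31899265 and 36134983 in mutants. Markers of hair cells and of supporting cells were present in every library, among them *Myo7a* of hair cells with between 450 and 629 reads and *Fgfr3* of supporting cells with between 1997 and 3695. Neuron markers and Schwann cell markers were higher in mutants in 13 of 14 and 13 of 13 genes, with median log2 fold changes of 2.63 and 1.69. None of them was called, where 0.108% of all genes tested were called higher in mutants, and they differed widely between mice. Mutant 4 stood apart in its neuronal transcripts and is given separately where a value rests on it.

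*Trh* was close to absent in the mutants. Controls 1 to 6 had 13, 18, 6, 11, 28 and 20 reads on *Trh*, and mutants 1 to 6 had 1, 1, 2, 0, 1 and 1. No mutant reached the lowest control, so the genotypes did not overlap. In CPM, counts scaled to library size with TMM factors, controls lay between 0.206 and 0.809 CPM, with a mean of 0.490 ± 0.207 (SD, n = 6). Mutants lay between 0 and 0.0565 CPM, with a mean of 0.0291 ± 0.0179 (SD, n = 6), or 5.94% of the control mean. The 0 reads of mutant 4 allow a level of up to 0.0877 CPM in that library, from a floor of 3 counts. Summed over mice, *Trh* had 96 reads in controls and 6 in mutants, a 17.1-fold difference with an exact 95% interval of 7.59 to 47.8, which covers counting error only. The log2 fold change in edgeR's fit of the whole table was -3.91 with a standard error (SE) of 0.46, and 4 of the 18459 genes tested had a lower one.

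**Figure D1:**
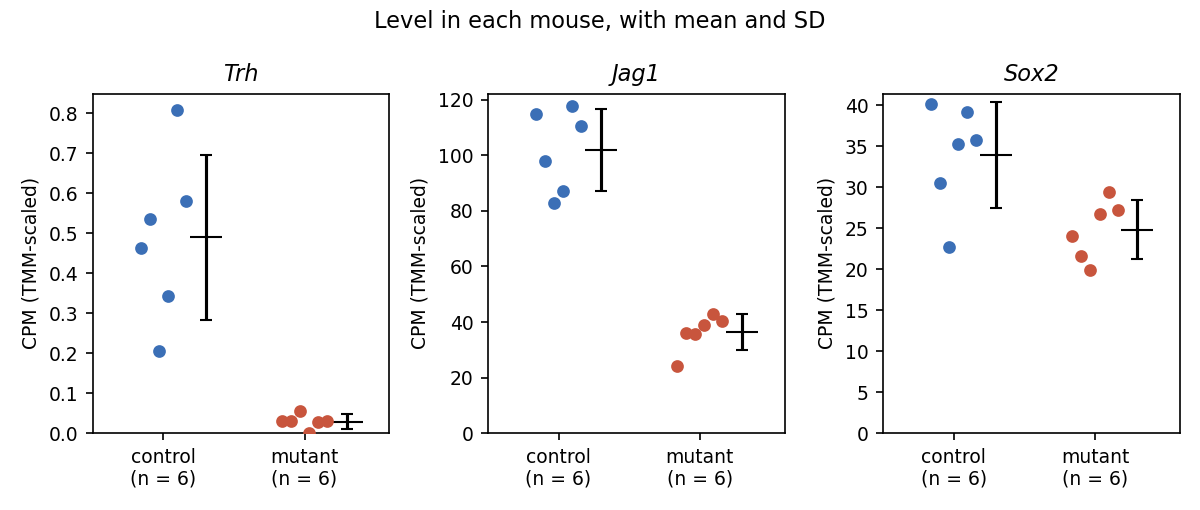
Level of *Trh*, *Jag1* and *Sox2* in CPM (linear axes from 0) in each control (blue) and mutant (red) mouse, with the mean and SD beside the points (n = 6 per genotype). All 6 mutants lie at or below 0.0565 CPM for *Trh*, under the lowest control at 0.206, and the genotypes overlap only for *Sox2*.

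*Trh* was left at a smaller share of its control level than the deleted gene itself. *Jag1* (chr2:137081456-137116644) averaged 102 ± 14.7 CPM over the controls and 36.4 ± 6.56 CPM over the mutants (SD, 6 mice each), counted over the whole gene, or 35.7% of the control mean. *Sox2* (chr3:34650405-34652461), the locus of the driver, was at 33.9 ± 6.49 CPM over controls and 24.8 ± 3.60 CPM over mutants, with every mutant below the control median but the ranges overlapping. Among controls, control 5 had the highest level of both *Trh* and *Jag1*, at 0.809 and 118 CPM, and control 3 the lowest of both, at 0.206 and 83.0 CPM. Control 3 was also the lowest control for *Sox2*, at 22.7 CPM. The order was not the same throughout. Control 1 was above control 6 for *Jag1*, at 115 against 111 CPM, but below it for *Trh*, at 0.463 against 0.581 CPM. In whole tissue, fewer cells that make a transcript and less transcript per cell cannot be told apart. By staining at P6, the study counted substantially fewer Hensen's cells, a supporting cell subtype, in mutants of this genotype. Its counts of inner and outer hair cells were similar between genotypes. The 10 supporting cell markers examined were all detected, and their summed level was between 2504 and 2719 CPM in controls and between 1998 and 2566 CPM in mutants. Their score (mean log2 CPM) did not overlap between genotypes, with controls between 6.74 and 6.87 and mutants between 6.53 and 6.72. The log2 fold change was above 0 for 1 of the 10 markers, and for 9403 of all 18459 genes tested. A low number was not particular to supporting cells. It was 0 of 7 for macrophages, 0 of 10 for fibrocytes and mesenchyme and 0 of 5 for endothelium. For bone it was 1 of 7, for stria and melanocytes 1 of 6 and for thyroid gland 1 of 4. Hair cells had 4 of 9, neurons 13 of 14 and Schwann cells 13 of 13. Of the 10 supporting cell markers, 1 was called, where 0.0813% of all genes tested were called lower in mutants. This was *Lfng*, a modifier of Notch receptors, at 57.3 CPM over controls and 42.0 CPM over mutants (edgeR adjusted p = 0.0204). The list includes genes of the Notch pathway, *Lfng* and *Hes1*, so the score does not measure the number of supporting cells alone. The part of supporting cells in the difference of *Trh* was not tested.

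The genes whose levels followed *Trh* most closely over the 12 mice were *Adamts16*, *Alox12e*, *Stox1*, *Agr3* and *Jag1*. The likeness was measured as Pearson's correlation of log2(CPM + 0.5), which was 0.951 for *Adamts16* and *Alox12e*, 0.935 for *Stox1* and 0.927 for *Agr3* and *Jag1*. These values carry the genotype difference of each gene and describe the 12 libraries only. *Agr3*, a member of the protein disulfide isomerase family, averaged 6.16 CPM in controls and 2.47 in mutants. *Alox12e*, a lipoxygenase, averaged 1.35 CPM in controls and 0.318 in mutants. *Adamts16*, a secreted metalloprotease, averaged 5.82 CPM in controls and 3.63 in mutants.

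The sequence upstream of *Trh* is given because this was the member with the large difference. The 250 bases before its RefSeq start (GRCm38.p6, minus strand, chr6:92244651-92244900) are printed 5′ to 3′ with a half-site for thyroid hormone receptors in capitals.
*Trh* promoter: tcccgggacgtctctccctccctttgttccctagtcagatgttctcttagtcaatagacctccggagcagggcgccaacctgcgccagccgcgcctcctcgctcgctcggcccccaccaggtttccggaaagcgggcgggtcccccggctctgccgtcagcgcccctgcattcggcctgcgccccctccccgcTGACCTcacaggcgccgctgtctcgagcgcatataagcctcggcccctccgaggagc
The half-site AGGTCA occurred once, as its reverse complement TGACCT, starting 57 bases before the start. On either strand it was present in 14.0% of 32851 promoter windows of the same length. The letters CACGTG and CACGCG, to which the Hey and Hes repressors bind, and TGGGAA, the core bound by RBPJ, were not in this window. They were present in 6.02%, 7.62% and 21.6% of all windows. A match of letters is not evidence of binding, and no match says nothing about a factor.

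The TRH receptor and the enzyme that degrades TRH overlapped between genotypes, unlike the hormone gene. *Trhr* (chr15:44196135-44235912), a G protein-coupled receptor, was itself near the lower limit of measurement, with between 10 and 27 reads in controls (median 18) and between 8 and 55 in mutants (median 19). Its level was 0.572 ± 0.221 CPM over controls and 0.654 ± 0.494 CPM over mutants (SD, n = 6 each), and the genotypes overlapped. Mutant 4 stood above all the other mice at 1.61 CPM. Without this mouse the mutant mean was 0.463 ± 0.180 CPM (SD, n = 5), and the log2 fold change of 0.19 (SE 0.42) became -0.30.

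Mutant 4 was also the mouse richest in neuronal transcripts. Its score over 14 neuron markers, their mean log2 CPM, was 6.26, while the other mutants lay between 2.41 and 4.71 and the controls between 1.32 and 3.30. The summed level of these markers was between 114 and 267 CPM in controls and between 151 and 1449 CPM in mutants, and none was at 0. *Pcsk1*, which encodes prohormone convertase 1 and can cleave the TRH precursor, behaved like *Trhr* in this mouse, with 104 reads in mutant 4 and between 6 and 15 in the other 11 mice. The part of neuronal RNA in the *Trhr* and *Pcsk1* values was not tested.

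**Figure D2:**
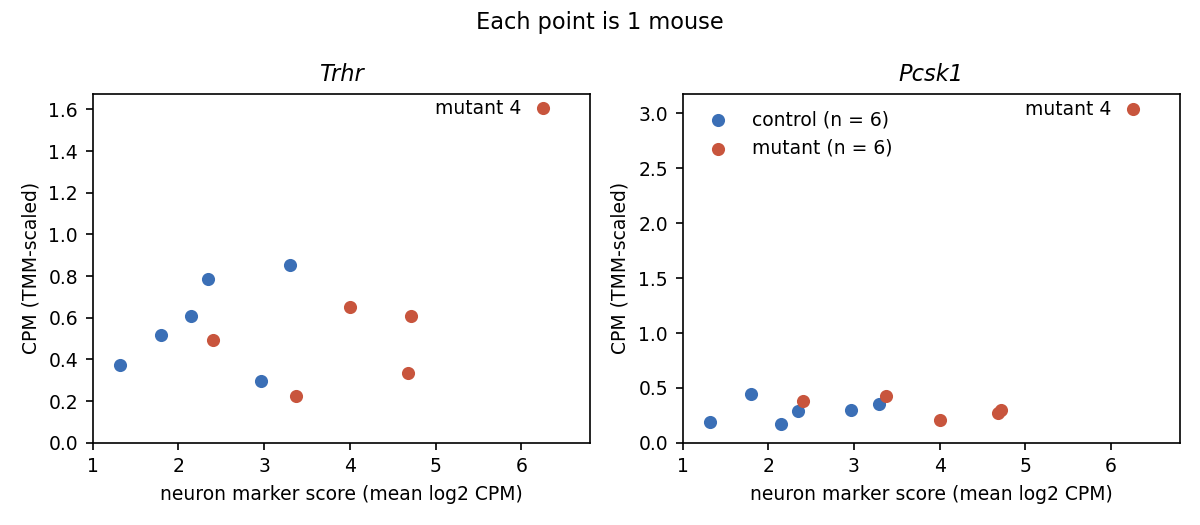
*Trhr* (left) and *Pcsk1* (right) in CPM against the neuron marker score (mean log2 CPM of 14 markers), 1 point per mouse, controls in blue and mutants in red (n = 6 each). Mutant 4, with a score of 6.26, has the highest level of both genes, at 1.61 CPM for *Trhr* and 3.04 CPM for *Pcsk1*.

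*Trhde* (chr10:114398823-114802307) encodes a membrane-bound peptidase that inactivates TRH outside the cell. It had between 243 and 333 reads in controls (median 307) and between 302 and 454 in mutants (median 345). The level was 9.22 ± 1.45 CPM over controls and 10.4 ± 1.93 CPM over mutants (SD, n = 6 each). The fitted log2 fold change was 0.18 (SE 0.13). The ranges overlapped, and mutant 2, at 13.8 CPM, and control 1, at 11.4 CPM, were the highest of their genotypes. In both genotypes the degrading enzyme was counted more often than the hormone gene: per length (RPKM, which is CPM divided by the kilobases of exon), *Trhde* averaged 1.14 in controls and *Trh* 0.354.

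**Figure D3:**
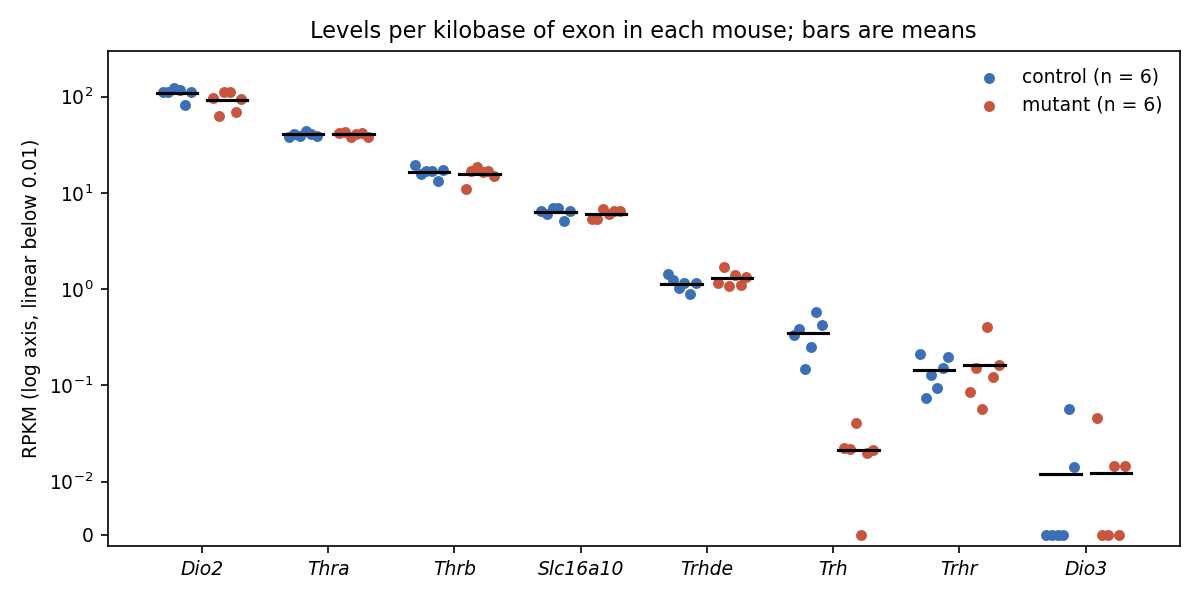
Level of the 8 members in RPKM (log axis, linear below 0.01 so that 0 can be drawn) in each control (blue) and mutant (red) mouse, ordered by their mean over all 12; black bars are genotype means. *Dio2* is the highest at 101 RPKM and *Dio3* the lowest at 0.0121, and only *Trh* separates by genotype.

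The order of levels per length over all 12 mice was *Dio2*, *Thra*, *Thrb*, *Slc16a10*, *Trhde*, *Trh*, *Trhr* and *Dio3*. Their means were 101 ± 19.6, 40.6 ± 1.92, 16.2 ± 2.29, 6.20 ± 0.653, 1.22 ± 0.217, 0.187 ± 0.201, 0.153 ± 0.0918 and 0.0121 ± 0.0194 RPKM (SD, n = 12). The first 5 genes had ranges apart from their neighbours, so that each lay above the next in all 12 mice. *Trh* and *Trhr* overlapped: *Trh* was above *Trhr* in 6 of the 12 mice, and it averaged 0.354 against 0.143 RPKM in controls and 0.0210 against 0.163 RPKM in mutants. *Trhr* and *Dio3* also had overlapping ranges, although *Trhr* was the higher of the pair in each mouse.

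*Dio2*, the enzyme that makes T3 from T4, was by far the most abundant member. Its reads lay between 16577 and 22179 in controls (median 21478) and between 12163 and 23273 in mutants (median 18504). The level was 639 ± 83.2 CPM over controls and 534 ± 123 CPM over mutants (SD, n = 6 each), and the ranges overlapped. In 4 of 6 mutants it was below the control median, and the log2 fold change was -0.26 (SE 0.14). Mutants 2 and 5 were the lowest of all mice, at 369 and 403 CPM, followed by control 5 at 479 CPM, while the other 9 mice lay between 555 and 719 CPM. *Dio2* lies on chromosome 12 (chr12:90724552-90738438), and 1.72% of its exonic bases are shared with *Gm26512* on the opposite strand, which had between 47 and 96 reads.

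*Dio3*, the inactivating deiodinase, was barely detected. It lies in a single exon (chr12:110279068-110281097) and had 5 reads in all controls together and 5 in all mutants together. Of these, 4 were in control 5 and 3 in mutant 1. In 7 of the 12 libraries it had 0 reads, which allows up to 0.0820 to 0.107 CPM in them. It was left out of the fit, which needed a mean count of at least 5.

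Both nuclear receptors overlapped between genotypes. *Thra* (chr11:98740638-98769006), which makes the alpha receptor and a splice form that does not bind T3, was between 177 and 203 CPM in controls (median 186) and between 177 and 196 CPM in mutants (median 191). Its mean was 187 ± 10.1 CPM over controls and 188 ± 8.42 CPM over mutants (SD, n = 6 each), with a log2 fold change of 0.01 (SE 0.05). It varied the least of the 8 members, with a coefficient of variation of 5.41% in controls and 4.49% in mutants. Counts per gene do not separate its splice forms. Its exons share 263 bases, or 5.70% of its exonic length, with *Nr1d1* on the opposite strand, which had between 479 and 806 reads, and reads there cannot be assigned without strand.

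*Thrb* (chr14:17660261-18038090), the receptor required for hearing, was between 99.4 and 144 CPM in controls (median 125) and between 80.5 and 136 CPM in mutants (median 123). Its mean was 123 ± 14.9 CPM over controls and 117 ± 19.6 CPM over mutants (SD, n = 6 each), with a log2 fold change of -0.08 (SE 0.11). Mutant 1, at 80.5 CPM, was the lowest mouse, and without it the log2 fold change was 0.01. Per length, *Thra* was above *Thrb* in all 12 mice.

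*Slc16a10* (chr10:40033532-40142258) encodes a transporter of aromatic amino acids that also carries thyroid hormones out of and into cells. It was between 37.1 and 51.3 CPM in controls (median 47.9) and between 38.9 and 49.9 CPM in mutants (median 46.0). Its mean was 46.5 ± 5.23 CPM over controls and 44.7 ± 4.63 CPM over mutants (SD, n = 6 each), with a log2 fold change of -0.06 (SE 0.09), and the ranges overlapped.

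**Figure D4:**
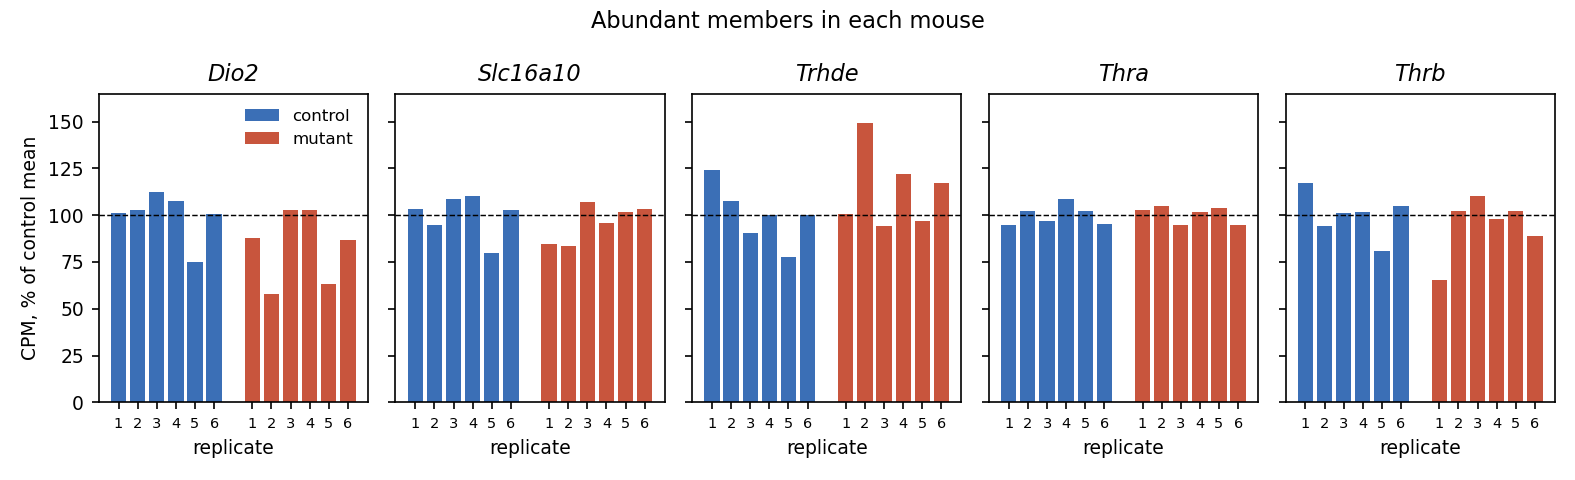
The 5 members with at least 50 reads per mouse on average, in each mouse, as a percent of the control mean in CPM (bars from 0; dashed line at 100%), controls in blue and mutants in red with their replicate numbers. Control 5 is the lowest control for *Dio2*, *Slc16a10*, *Trhde* and *Thrb* but not for *Thra*, and mutants 2 and 5 have the lowest *Dio2*.

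Control 5 was the lowest control for 4 of these 5 genes. It stood at 71.4% of the mean of the other 5 controls for *Dio2*, at 74.1% for *Trhde*, at 76.8% for *Slc16a10* and at 77.7% for *Thrb*, while *Thra* was at 103% and *Trh* at 190%. Without this mouse the mutants were at 79.6% of the control mean for *Dio2* and at 6.83% for *Trh*. The totals of the 12 libraries did not set it apart in depth: its 34430252 reads were the most of any control, and controls started at 28498549.

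Of the 7 members that were tested in the whole table, 1, *Trh*, had an adjusted p under 0.05 in edgeR's quasi-likelihood test with Benjamini-Hochberg adjustment, where 35 of all 18459 genes, or 0.190%, had one and 0.0813% had one and were lower in mutants. *Trh* was also the only one of the 7 whose CPM ranges did not overlap, as against 0.997% of all genes in either direction and 0.379% lower in mutants. Since *Trh* was chosen from this comparison, nothing is read from these counts. With the neuron and Schwann cell marker scores in the fit, 1 gene of the whole table was called and *Trh* was not. These scores themselves differed with genotype. The Schwann cell score was between 3.95 and 5.81 in controls and between 5.57 and 7.67 in mutants. This fit therefore cannot fully tell genotype and scores apart. The deleted gene *Jag1*, called without the scores, was not called with them either. With the scores its log2 fold change was -1.41 (SE 0.21), against -1.48 (SE 0.13) without them. That of *Trh* was -4.46 (SE 0.64) with the scores, against -3.91 (SE 0.46) without them. With the scores, that of *Trhde* was -0.11, that of *Slc16a10* was 0.16 and that of *Trhr* was -0.43. The median log2 fold change of the 7 members was -0.06, and that of all genes tested was 0.00.

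Beyond the members, 50 other genes of the system were examined in 5 groups by role, and 46 of them had enough reads to be tested. None of the 46 had an adjusted p under 0.05 in edgeR's quasi-likelihood test, where 0.190% of all genes tested had one. DESeq2 gave none either among the 45 with a p-value, where 3.35% of all genes tested had one. At such shares a list of 46 can hold none, so nothing is read from the 0 calls. At an unadjusted p under 0.05 there were 3, or 6.52%, all lower in mutants, where 10.6% of all genes passed in either direction and 4.04% passed lower in mutants. No gene of the 46 had ranges that did not overlap, as against 0.997% of all genes tested. Their log2 fold changes had a median of -0.02, with 21 above and 25 below 0.

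The genes that process or degrade TRH, or carry the thyrotropin signal, were 12, of which 9 were tested and 0 passed an unadjusted p under 0.05. *Cpe*, the carboxypeptidase that trims the ends of cleaved prohormones, was the highest of them per length at 139 RPKM. It averaged 352 ± 42.8 CPM over controls and 376 ± 38.4 CPM over mutants (SD, n = 6 each), with a log2 fold change of 0.10 (SE 0.09, edgeR adjusted p = 0.824). *Pcsk1* had the smallest p of the group, with a log2 fold change of 1.40 (SE 0.66, edgeR adjusted p = 0.483) that fell to 0.14 without mutant 4. *Tshb*, the beta chain of thyrotropin, had between 0 and 11 reads per mouse, and *Cga*, its alpha chain, had 0 or 1.

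Of 8 genes for hormone transport and binding 7 were tested, and 1 passed an unadjusted p under 0.05. This was *Slc7a8*, an amino acid transporter that takes up iodothyronines, at 96.0 ± 11.7 CPM over controls and 78.8 ± 11.0 CPM over mutants (SD, n = 6 each), with a log2 fold change of -0.28 (SE 0.10, unadjusted p = 0.0123, edgeR adjusted p = 0.251). *Crym*, which encodes the T3-binding mu-crystallin, was the highest of the group per length at 79.1 RPKM. It was at 268 ± 45.5 CPM over controls and 269 ± 33.6 CPM over mutants (SD, n = 6 each), with a log2 fold change of 0.01 (SE 0.11, edgeR adjusted p = 0.995) whose sign changed with the filter and with the mice included.

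All 7 genes of deiodination and its regulation were tested, and 0 passed an unadjusted p under 0.05. *Dio1*, the third deiodinase, had between 4 and 16 reads per mouse and a log2 fold change of -0.62 (SE 0.31, edgeR adjusted p = 0.511). *March6*, a ubiquitin ligase that acts on the type 2 deiodinase, was the highest of the group per length at 21.4 RPKM, with a log2 fold change of 0.01 (SE 0.11, edgeR adjusted p = 0.990), a sign that also changed with the mice included.

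Of the 15 receptor partners and cofactors, all tested, 1 passed an unadjusted p under 0.05. This was *Med1*, a subunit of the Mediator complex that binds nuclear receptors with hormone, at 80.7 ± 6.82 CPM over controls and 72.7 ± 3.97 CPM over mutants (SD, n = 6 each), with a log2 fold change of -0.15 (SE 0.06, unadjusted p = 0.0340, edgeR adjusted p = 0.403). *Hdac3*, the deacetylase of the corepressor complex, was the highest of the group per length at 36.9 RPKM and had a log2 fold change of -0.05 (SE 0.06, edgeR adjusted p = 0.876).

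Among 8 genes known to respond to thyroid hormone, all tested, 1 passed an unadjusted p under 0.05. *Tectb*, which encodes the tectorial membrane protein beta-tectorin, was both the highest of the group per length and the one with the smallest p. It was at 3895 ± 435 CPM over controls and 3160 ± 509 CPM over mutants (SD, n = 6 each), with a log2 fold change of -0.30 (SE 0.11, unadjusted p = 0.0152, edgeR adjusted p = 0.278). The general T3 target *Klf9* was at 84.1 ± 11.7 CPM over controls and 93.1 ± 32.2 CPM over mutants. *Hr*, another, was at 82.0 ± 11.8 and 84.6 ± 11.2 CPM (SD, n = 6 each). *Klf9* and *Hr* are named after their values were seen, as was *Tshb* with *Cga*. Over all 8 genes of this group, the log2 fold change was above 0 for 4 and below 0 for 4, so no direction is read from these 2.

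**Figure D5:**
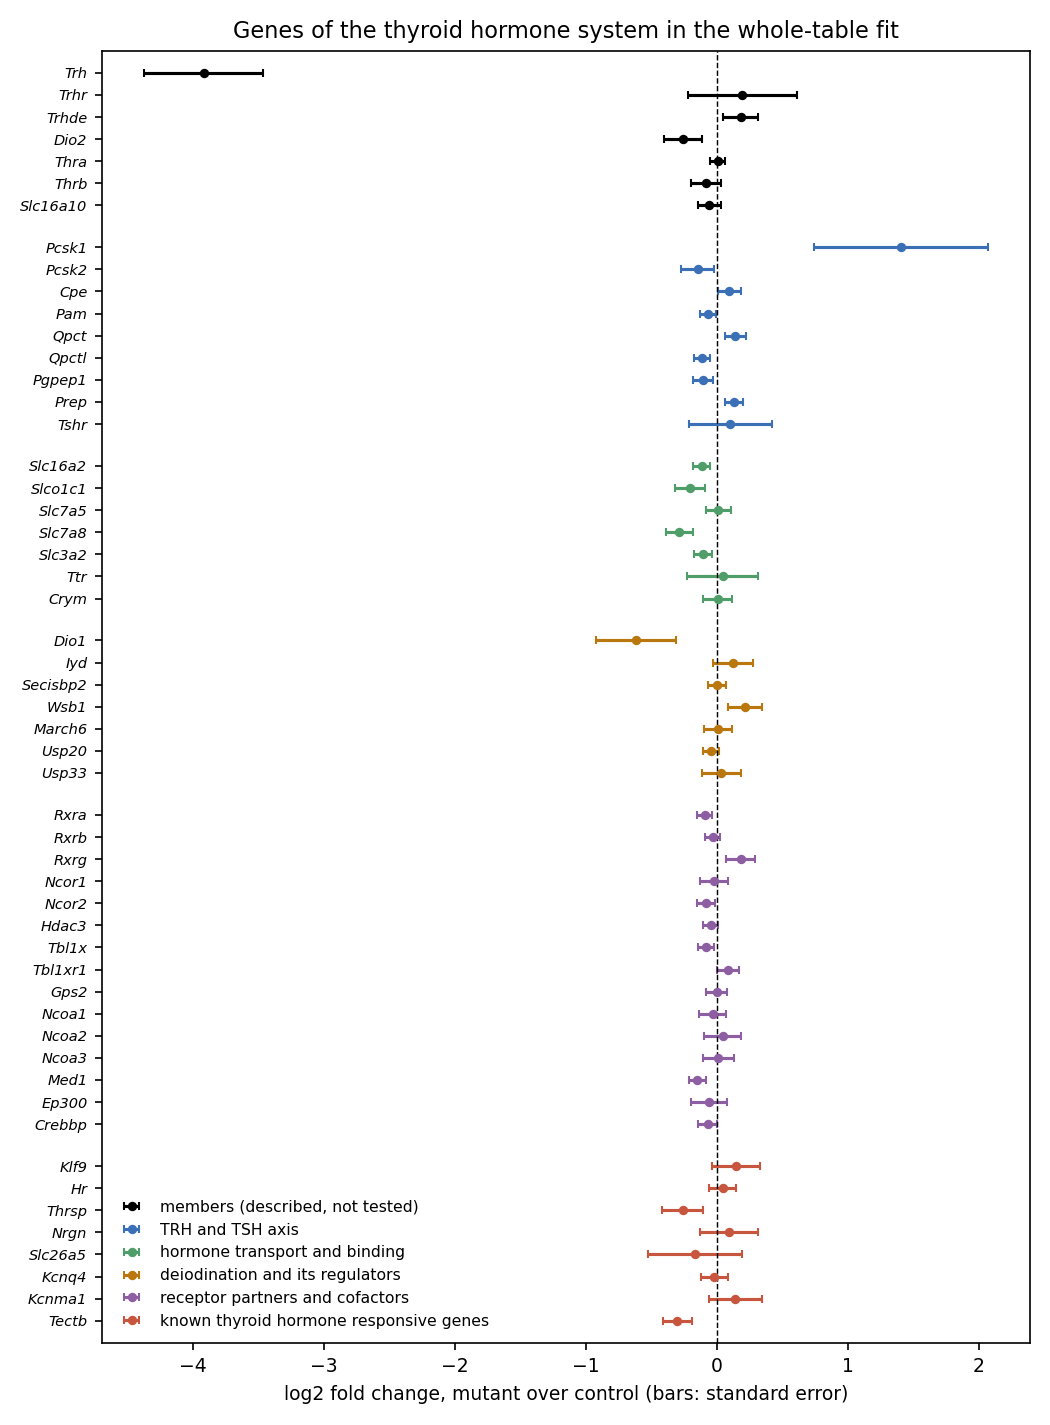
Log2 fold change of mutant over control, with its SE as bars, for the 7 members in the fit (black, described without a test) and the 46 tested genes of the system, coloured by role (n = 6 mice per genotype). *Trh* lies at -3.91, far to the left of the other genes, whose values lie between -0.62 and 1.40, the highest being *Pcsk1*.

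The spread of the abundant members within genotypes, which the choice of the genes did not use, was set against markers of 10 cell types. For the 5 members with a mean of at least 50 reads, log2(CPM + 0.5) was correlated with each marker score over the 12 mice after the mean of each genotype was subtracted, which made 50 relations. None had an adjusted p under 0.05 (permutation of mice within genotypes, 2-sided, 100000 resamples, Benjamini-Hochberg over 50), either by Pearson's r or by Spearman's rho. An unadjusted p under 0.05 was found for 2 by r and for 4 by rho. *Thrb* had r = 0.718 with the hair cell score (permutation p = 0.0321, adjusted p = 0.611) and a Spearman's rho of 0.543 (permutation p = 0.0970, adjusted p = 0.693), and r was 0.593 without the 2 mice farthest from the median score. *Dio2* had r = 0.800 with the thyroid gland score (permutation p = 0.00947, adjusted p = 0.473) and a rho of 0.629 (permutation p = 0.0483, adjusted p = 0.604), and r was 0.703 without the 2 farthest mice. This score used the 4 of 6 listed thyroid gland markers with a mean count of at least 5. By rho alone, *Trhde* had 0.800 with the neuron score (permutation p = 0.00651, adjusted p = 0.325), where r was 0.572 (permutation p = 0.0733, adjusted p = 0.611) and 0.584 without the 2 farthest mice. *Thra* had a rho of -0.743 with the hair cell score (permutation p = 0.0144, adjusted p = 0.361), where r was -0.377 (permutation p = 0.234, adjusted p = 0.888) and -0.808 without the 2 farthest mice. It also had a rho of -0.629 with the thyroid gland score (permutation p = 0.0482, adjusted p = 0.604), where r was -0.554 (permutation p = 0.0644, adjusted p = 0.611) and -0.431 without the 2 farthest mice.

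Within genotypes the genes that followed each abundant member most closely over the 12 mice were of varied function. By Pearson's correlation of log2(CPM + 0.5) they were *Rhbdl3* for *Dio2* (0.959), *Fam221a* for *Thra* (0.945), *Usp8* for *Thrb* (0.965), *Aste1* for *Slc16a10* (0.962) and *Tcp11l2* for *Trhde* (0.913). The next in likeness were *Tigar* and *Gorasp1* for *Dio2*, *Adamtsl2* and *Qrfp* for *Thra*, *Pik3ca* and *Rab3gap1* for *Thrb*, *Psme3* and *Ppp1r3b* for *Slc16a10*, and *Crebl2* and *Serinc5* for *Trhde*. These values are the highest of 18459 and describe the 12 libraries only.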

How the data were processed

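Cochlear RNA of 6 controls and 6 mutants was sequenced as single-end reads, and the deposited table holds raw read counts of each gene symbol in each mouse, neither normalized nor pooled. The submitters' processing notes name Trimmomatic 0.32, STAR 2.4.2a, HTSeq 0.9.1, DESeq2 1.10.1 and the build GRCm38.p4; the annotation and the strand setting are not given in the sources used here. The authors' own table of fold changes and p-values was not used. The genotype and the replicate number come from the deposited labels.

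The 18459 genes averaging 5 or more reads per library were compared by edgeR 4.0.16 (quasi-likelihood F-test, robust, TMM, no covariates, R 4.3.3) and adjusted by Benjamini-Hochberg. The test was first run on simulated data. CPM divides counts by the summed count of these genes and the TMM factor, and RPKM also by the merged exon length in GENCODE M21 on GRCm38. The standard error is the log2 fold change divided by the square root of F. Sequences come from GENCODE M21 transcripts and, for the promoter, from a RefSeq table on GRCm38.p6 that matched 6 of the 8 members. Intervals on summed reads are exact and, like floors, cover counting error only. Marker scores are mean log2 CPM with a prior count of 2.

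The members and gene lists were chosen with earlier results of these data known. The genes named are all members, the most abundant gene per length and the one with the smallest p in each role group, the 5 genes most like *Trh*, the 3 most like each member with at least 50 reads on average, *Jag1* and *Sox2*. The correlations with marker scores were added after the counts were examined. Alternatives were DESeq2 1.42.0 without a prior, a minimum mean count of 20 or none, upper-quartile or RLE scaling, a replicate block, marker scores as covariates, and leaving out each mouse.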

Additional observations from a re-analysis of the deposited data

Results flagged for a closer look

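In 20 groups of 6 values (the 8 members, *Jag1* and *Sox2* in each genotype), 4 values, from 3 mice, stood apart from the rest of their group by more than the 95% critical value of Dixon's test. Chance sets apart about 5% of groups only where values are normally distributed. The *Dio3* groups, with many values of 0 and few reads, are not, so the number set apart cannot be read as an excess. *Trhr* in mutant 4 reached 1.61 CPM, against a range in the remaining mutants of 0.226 to 0.653 CPM. *Dio2* in control 5 was at 479 CPM, and the other controls were between 644 and 719 CPM. *Dio3* in control 5 was at 0.116 CPM, which is 4 reads, and in mutant 1 at 0.0920 CPM, which is 3 reads, and the other mice had 0 or 1 read.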

How the results depend on the processing

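The number of genes called over the whole table was 35, of which *Trh* was 1. It was 619 with DESeq2 without a prior, 57 without a filter on low counts, 131 with the replicate block, 20 with the fibrocyte and mesenchyme score in the fit and 1 when the neuron and Schwann cell scores entered the fit, and between 14 and 356 when 1 mouse was left out, the highest without mutant 5. The log2 fold change of *Trh* was -4.46 with the neuron and Schwann cell scores, and between -4.18 and -3.68 with each mouse left out. That of *Trhr* was -0.43 with these scores and between -0.30 and 0.37 with each mouse left out, and those of *Trhde* and *Slc16a10* were -0.11 and 0.16 with these scores. *Trh* was not among the genes called with these scores, and neither was *Jag1*. *Trh* had too few reads for a minimum mean count of 20, and since it was chosen from this comparison its calls elsewhere are no support for it. The other genes of the system stayed at 0 calls in all 20 alternatives, where between 0.00542% and 3.35% of all genes tested were called. *Crym* was at -0.0014 without a filter and between -0.041 and 0.092 with each mouse left out. *March6* was at -0.073 with the neuron and Schwann cell scores and between -0.032 and 0.085 with each mouse left out. The causes of these shifts were not tested. The labels do not say whether the replicate numbers mark pairs. The deviations of same-numbered mice correlated between -0.226 and 0.334, over 0.1 in 3 of 6. Of 6 controls, 2 correlated best with the mutant of their own number. So few correlations cannot decide whether same-numbered mice shared a litter or a batch. At these depths *Trh*, *Trhr*, *Dio1* and *Dio3* rest on few reads in both genotypes. *Trh* had between 6 and 28 reads in controls, and no order among mutants can be read for it.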
